A study of Mus musculus with 12 samples.

Results

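Transcripts of 8 enzymes of the mevalonate arm of cholesterol synthesis, Acat2, Hmgcs1, Mvk, Pmvk, Mvd, Idi1, Fdps and Ggps1, were followed in bone marrow-derived macrophages (BMDMs). They were taken by gene symbol from a count table of 12960 genes, and all 8 were listed and passed the filter on low counts, as did 10822 genes in all. BMDMs of WT mice and of mice lacking AMPKβ1 in the whole body (AMPKβ1-/-) were grown from marrow with L929 medium, a source of M-CSF, for 7 days. Cells of each genotype were then kept for 6 h with vehicle (DMSO, 0.1%) or with PF-06409577 (PF, 10 μM), a small molecule activator of AMPK complexes that hold the β1 subunit. With 3 RNA-seq libraries per group, the 4 groups made 12 libraries. The strain, age and sex of the marrow donors and whether libraries came from separate mice or cultures are not given in the labels, so p values measure only the spread between these libraries.

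The mevalonate arm turns acetyl-CoA into isoprenoid diphosphates. Acat2 joins acetyl-CoA units, and Hmgcs1 adds a further unit to give HMG-CoA, which leads to mevalonate. Mvk and Pmvk phosphorylate mevalonate, Mvd decarboxylates the product to isopentenyl diphosphate, and Idi1 turns this into its isomer dimethylallyl diphosphate. Fdps condenses these units to farnesyl diphosphate, the branch point to sterols, and Ggps1 extends it to geranylgeranyl diphosphate, which is used to anchor small GTPases in membranes. Many genes of sterol synthesis are driven by SREBP2, a membrane-bound transcription factor that Insig proteins hold in the endoplasmic reticulum when sterols are plentiful. AMPK is an energy-sensing kinase with a regulatory β subunit, and it is known to restrain lipid synthesis in liver and macrophages.

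The members lie on 5 chromosomes by the GENCODE M21 annotation of GRCm38. Hmgcs1 (chr13:119690379-119708260, plus strand), Idi1 (chr13:8885501-8892451, plus) and Ggps1 (chr13:14050659-14063488, minus) share chromosome 13, far from each other. Pmvk (chr3:89454541-89469013, plus) and Fdps (chr3:89093588-89101959, minus) share chromosome 3. Acat2 (chr17:12942890-12960747, minus), Mvk (chr5:114444269-114460591, plus) and Mvd (chr8:122433601-122443422, minus) lie elsewhere. Fdps overlaps Gm43738 on the same strand over 7512 bases, Mvd lies inside Gm20388 on the opposite strand, and Hmgcs1 overlaps the antisense gene Gm48342. The library kit keeps strand, but the strand setting of the quantification is not given in the sources used here. Reads of the overlapping genes on opposite strands may therefore not be told apart. For Fdps and Gm43738, on the same strand, strand does not separate the reads whatever the setting. Acat2 has a close paralog, Acat3, and its counts are uncertain to the extent that reads were split between them.

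RefSeq promoter windows on GRCm38.p6, from 250 bases before to 50 bases after a start site, were found for 7 of the 8 members, and Fdps had none. The stretches before the start of Hmgcs1 (chr13:119690101-119690350, plus strand), Mvd (chr8:122443423-122443672, minus strand) and Mvk (chr5:114444019-114444268, plus strand) are shown. They were chosen because, between WT groups, Hmgcs1 differed by every fit below, Mvd by some of the fits and Mvk by none. Capitals mark matches on either strand to the sterol regulatory element letters TCACNCCAC and to CCAAT, the box bound by NF-Y, and the matches of these motifs do not overlap each other.
Hmgcs1: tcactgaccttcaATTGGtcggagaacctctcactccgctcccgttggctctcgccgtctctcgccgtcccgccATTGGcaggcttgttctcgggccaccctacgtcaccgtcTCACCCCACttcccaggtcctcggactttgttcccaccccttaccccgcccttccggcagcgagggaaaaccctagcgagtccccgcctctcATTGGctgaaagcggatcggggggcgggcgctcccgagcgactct
Mvd: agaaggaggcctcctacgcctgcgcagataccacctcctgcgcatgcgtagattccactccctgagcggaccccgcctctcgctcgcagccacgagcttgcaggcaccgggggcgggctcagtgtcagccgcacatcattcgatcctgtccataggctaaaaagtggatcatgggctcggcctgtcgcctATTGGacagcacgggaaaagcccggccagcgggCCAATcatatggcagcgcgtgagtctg
Mvk: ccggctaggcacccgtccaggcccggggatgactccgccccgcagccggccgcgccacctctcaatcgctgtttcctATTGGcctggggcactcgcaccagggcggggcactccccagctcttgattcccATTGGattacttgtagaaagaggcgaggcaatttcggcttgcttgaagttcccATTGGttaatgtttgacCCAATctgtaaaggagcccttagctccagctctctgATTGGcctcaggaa

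The sterol regulatory element letters were found in 1 of the 7 members, Hmgcs1, where TCACCCCAC lies from -137 to -129 relative to the start. Of all 32851 RefSeq windows, 1.24% hold these letters. A CCAAT box was found in 6 of the 7 members (all but Acat2) against 37.4% of all windows. There were 4 matches in Hmgcs1, 5 in Mvk, 3 in Ggps1, 2 in Mvd, 2 in Idi1 and 1 in Pmvk. The members are counted per gene and the shares per window. The 7 members had 8 windows, and window 2 of Pmvk held 0 matches to any of the motifs. The GC box GGGCGG was found in Acat2, Hmgcs1, Mvk, Mvd and Idi1, and in 35.7% of all windows, while the E-box CACGTG was found in 0 of the 7 and in 7.15% of all. A match describes letters in this window, and sites elsewhere or of other spelling were not searched.

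The libraries held 8935609 to 14358180 counts, and replicate pairs differed by 2.16 to 17.8 times the variance of counting alone, so none was a repeat deposit. Prkab1, the gene of AMPKβ1, was at 37.3 CPM or more (TMM-normalized CPM, a count relative to the library's total) in each WT library and at 9.42 CPM or less in each AMPKβ1-/- library, which fits the genotype labels. The macrophage markers Csf1r, Adgre1, Cd68, Itgam, Mertk, Lyz2, Spi1 and Cd14 summed to 25470 to 30260 CPM in a library. Granulocyte markers summed to at most 1.39 CPM, fibroblast markers to 0.923 to 8.66 CPM, and dendritic markers to 3.83 to 8.66 CPM. Of the lymphoid markers only Cd3d and Cd4 were listed, at 12.7 to 14.2 CPM together in WT and 5.65 to 6.58 CPM in AMPKβ1-/- libraries. The dependence of counts on GC content separated the genotypes. Its slope was 0.357 to 0.717 on the log2 scale for 10 percentage points of GC in WT vehicle libraries and -0.0514 to 0.368 in WT PF libraries. It was -0.356 to -0.101 in AMPKβ1-/- vehicle and -0.512 to -0.331 in AMPKβ1-/- PF libraries. Values below are therefore given also after the trend in GC content and transcript length was removed from each library, where that changed a call or a direction.

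Per length, Fdps was the most abundant member and Ggps1 the least. In WT vehicle libraries the level was 187 ± 8.16 TPM for Fdps (SD, n = 3 here and below), 64.4 ± 5.46 TPM for Mvd, 50.4 ± 4.21 TPM for Pmvk, 49.4 ± 1.13 TPM for Mvk and 21.4 ± 5.93 TPM for Hmgcs1. Acat2 was at 20.5 ± 2.34 TPM, Idi1 at 5.72 ± 1.80 TPM and Ggps1 at 2.60 ± 0.422 TPM. In this order the libraries of Pmvk and Mvk overlapped, as did those of Hmgcs1 and Acat2, and the libraries of other neighbours did not. TPM here use the length of the longest annotated transcript. Fdps led and Ggps1 was last in each of the other 3 groups, and Hmgcs1 was at 45.9 ± 15.7 TPM in WT PF, 37.5 ± 1.76 TPM in AMPKβ1-/- vehicle and 39.3 ± 4.86 TPM in AMPKβ1-/- PF.

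**Figure D1:**
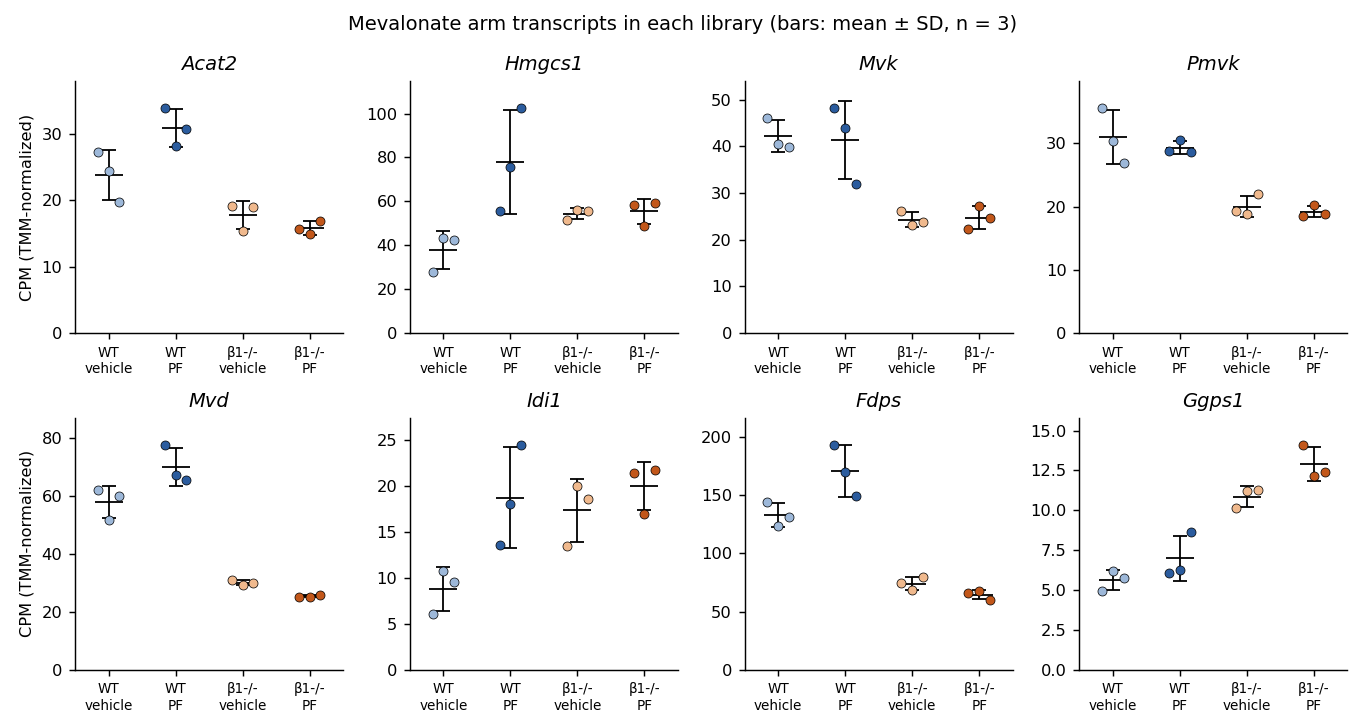
CPM (TMM-normalized, linear axis from 0) of each of the 8 members in the 12 libraries, with 1 point per library, from library 1 on the left to library 3 on the right in a group, and the mean ± SD of each group. Hmgcs1, Idi1, Fdps, Mvd and Acat2 were higher in all 3 WT PF libraries than in all 3 WT vehicle libraries, and AMPKβ1-/- levels of Mvd stayed at or below 31.1 CPM.

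The first question was whether PF changed the arm in WT BMDMs. Hmgcs1, Idi1 and Fdps rose, and no member fell. Transcripts of 3 of the 8 members passed the test (edgeR's quasi-likelihood test, Benjamini-Hochberg adjusted p below 0.05 over all tested genes), while 6.99% of all tested genes were called higher. That share rested on single libraries. It was 14.9% without WT PF library 1, 1.70% without WT vehicle library 1 or WT PF library 2, 2.38% without WT vehicle library 3 and 1.18% without WT PF library 3, with 2 to 3 members called in each of these fits. Hmgcs1 and Idi1 also passed a log2 fold change of 0.8, the study's threshold for a differentially expressed gene, as did 1.16% of all tested genes in that direction. The median log2 fold change of the members was 0.34, and that of all tested genes was 0.0048. Summed over the members, levels were 330.5 to 353.5 CPM in WT vehicle and 439.2 to 457.1 CPM in WT PF libraries.

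Hmgcs1, the synthase at the entry of the arm, was at 27.7, 43.3 and 42.2 CPM in the WT vehicle libraries and at 55.6, 75.7 and 102.5 CPM in the WT PF libraries. All 3 PF libraries lay above all 3 vehicle libraries, and the PF libraries were the more spread. The log2 fold change was 1.05 ± 0.199 (SE), with an adjusted p of 0.00688. It was called in every alternative run, with log2 fold changes of 0.65 to 1.24. The isomerase Idi1 was at 6.09, 10.7 and 9.55 CPM with vehicle and at 13.6, 18.1 and 24.5 CPM with PF, again without overlap. Its log2 fold change was 1.08 ± 0.241 (adjusted p = 0.0133). The adjusted p of Idi1 was 0.0511 without WT vehicle library 1 and 0.0591 without WT PF library 3, and 0.137 with both left out, where its log2 fold change was 0.67.

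Both genes have GC-poor transcripts (43.1% GC in Hmgcs1 and 41.9% in Idi1). Their lowest WT library was vehicle library 1, which had the steepest GC slope, and their highest was PF library 3, which had the lowest GC slope of the WT libraries. With the GC and length trend removed the log2 fold change was 0.70 for Hmgcs1 (adjusted p = 0.00308) and 0.71 for Idi1 (adjusted p = 0.00721), so both kept the call and neither passed 0.8.

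The prenyl diphosphate synthase Fdps was at 143.7, 123.2 and 131.0 CPM with vehicle and at 193.3, 169.5 and 149.2 CPM with PF in WT. The groups did not overlap. The log2 fold change was 0.36 ± 0.0981 (adjusted p = 0.0245), and 0.51 with the GC trend removed (adjusted p = 8.96e-05). The call of Fdps was lost without WT vehicle library 2 (0.0569), WT vehicle library 3 (0.0709) or WT PF library 2 (0.0758), and when only WT libraries were fitted (0.0661), all adjusted p values.

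Mvd, the decarboxylase, was at 62.2, 51.8 and 60.0 CPM with vehicle and at 77.7, 67.1 and 65.5 CPM with PF in WT. Acat2, the thiolase, was at 27.3, 24.5 and 19.7 CPM with vehicle and at 33.9, 28.1 and 30.7 CPM with PF. Neither passed the test, although in both genes each PF library lay above each vehicle library. The log2 fold change was 0.27 ± 0.0923 for Mvd (adjusted p = 0.0545) and 0.38 ± 0.130 for Acat2 (adjusted p = 0.0591). Removing the GC trend gave 0.55 for Mvd (adjusted p = 0.00013) and 0.41 for Acat2 (adjusted p = 0.0344), which brought the members called to 5, beside 4.01% of all tested genes called higher in that fit. Libraries that did not overlap, with PF higher, were thus seen for 5 of the 8 members, and for 14.2% of all tested genes.

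The kinases showed no such separation in WT. Mvk was at 39.9 to 46.1 CPM with vehicle and 32.0 to 48.2 CPM with PF, and its log2 fold change was -0.027 ± 0.132 (adjusted p = 0.896). Pmvk was at 27.0 to 35.6 CPM with vehicle and 28.6 to 30.5 CPM with PF, with a log2 fold change of -0.080 ± 0.111 (adjusted p = 0.616). Both values turned positive with the GC trend removed (0.23 and 0.12, not called). Ggps1 was at 4.92 to 6.18 CPM with vehicle and 6.09 to 8.62 CPM with PF, and its log2 fold change of 0.32 ± 0.170 (adjusted p = 0.194) became -0.074 with the GC trend removed. Csf1r, Itgam, Spi1 and Cd14, which make 4 of the 8 macrophage markers, fell with PF in WT, and the median over the 8 was -0.27. Of all 10822 tested genes 969 were called lower. With the GC trend removed Csf1r (-0.34), Itgam (-0.37), Cd14 (-0.33) and Adgre1 (-0.25) were called lower and Spi1 (-0.097) was not. In that fit 271 of all tested genes were called lower. The summed level of the 8 markers was 27100 to 30260 CPM with vehicle and 25470 to 28040 CPM with PF. The part of these markers in the members' differences was not tested. Fewer cells of a type and less RNA per cell cannot be told apart in these bulk libraries.

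The second question was whether the same was seen without AMPKβ1. In AMPKβ1-/- BMDMs, 0 of the 8 members passed the test with edgeR, DESeq2 or limma-voom, and 1 had an unadjusted p under 0.05. Of all tested genes, 0.0554% were called by edgeR in either direction and 4.98% had an unadjusted p under 0.05. The median log2 fold change of the members was -0.014. Hmgcs1 was at 51.5, 55.9 and 55.7 CPM with vehicle and at 58.3, 48.8 and 59.3 CPM with PF, and Idi1 was at 13.49, 19.95 and 18.56 CPM with vehicle and at 21.34, 16.96 and 21.67 CPM with PF. The groups overlapped in both genes. The log2 fold change was 0.028 ± 0.196 for Hmgcs1 and 0.20 ± 0.223 for Idi1.

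Mvd and Fdps were lower in all 3 PF libraries than in all 3 vehicle libraries of AMPKβ1-/- BMDMs, as were 6.28% of all tested genes. Mvd was at 31.1, 29.4 and 29.8 CPM with vehicle and at 25.2, 25.2 and 26.0 CPM with PF (log2 fold change -0.24 ± 0.0989, unadjusted p = 0.0272 and adjusted p = 0.899 by edgeR). Fdps was at 74.2, 68.3 and 79.7 CPM with vehicle and at 65.7, 67.3 and 60.1 CPM with PF (log2 fold change -0.20 ± 0.102, adjusted p = 0.982 by edgeR). Acat2 had a log2 fold change of -0.16 ± 0.137, Mvk of 0.026 ± 0.139, Pmvk of -0.055 ± 0.116 and Ggps1 of 0.25 ± 0.149, and of these Ggps1 alone had PF libraries that all lay above the vehicle libraries, as did 8.21% of all tested genes.

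**Figure D2:**
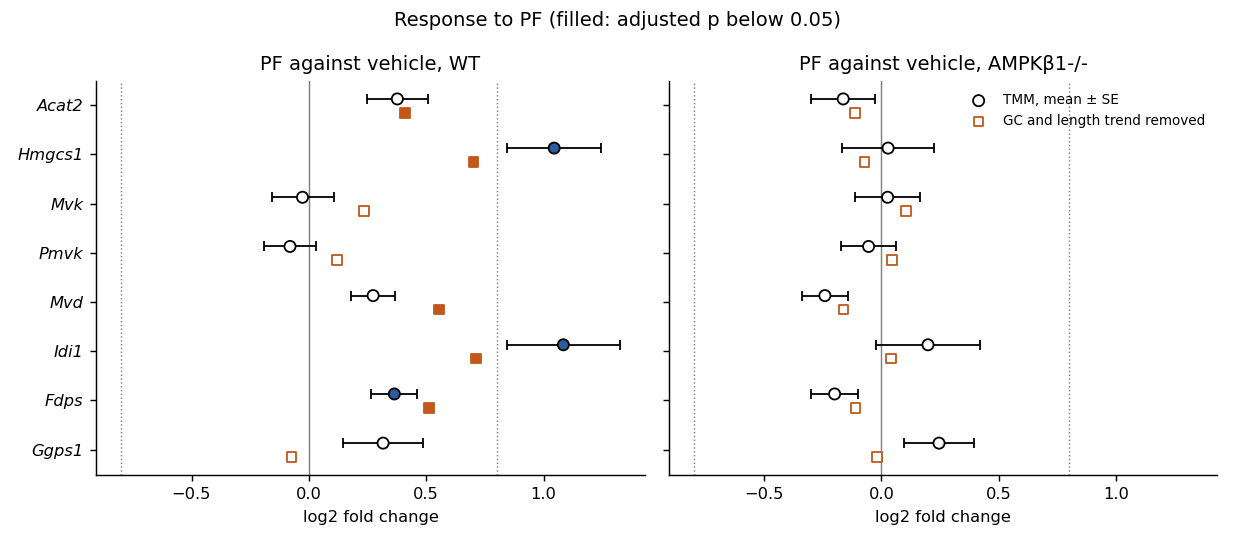
Log2 fold change of each member with PF against vehicle in WT (left) and AMPKβ1-/- BMDMs (right), as circles with SE by TMM and as squares with the GC and length trend removed. Filled symbols have an adjusted p below 0.05 and dotted lines mark 0.8 and -0.8. Filled circles are Hmgcs1, Idi1 and Fdps in WT, filled squares add Acat2 and Mvd, and no symbol is filled in AMPKβ1-/- BMDMs.

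The difference between the responses (WT minus AMPKβ1-/-) was tested directly. By edgeR, 0 of the 8 members passed, 5 had an unadjusted p under 0.05, each with the more positive response in WT. In that direction 0.176% of all tested genes were called, and 6.35% had an unadjusted p under 0.05. The difference on the log2 scale was 1.02 ± 0.279 for Hmgcs1, 0.89 ± 0.329 for Idi1, 0.56 ± 0.141 for Fdps, 0.54 ± 0.189 for Acat2 and 0.51 ± 0.135 for Mvd, with adjusted p values of 0.0949 to 0.252. For Mvk it was -0.053 ± 0.191, for Pmvk -0.026 ± 0.161 and for Ggps1 0.071 ± 0.226. With the GC trend removed, Hmgcs1 (0.77, adjusted p = 0.0416), Mvd (0.72, adjusted p = 0.0035) and Fdps (0.62, adjusted p = 0.00345) were called. DESeq2's Wald test called Hmgcs1 and Fdps, library size alone called Mvd and Fdps, and Hmgcs1 was called by edgeR without WT PF library 1 (adjusted p = 0.0205). The share of all tested genes called in that direction was 0.656% with the GC trend removed, 0.628% with DESeq2's Wald test, 0.213% with library size alone and 1.22% without WT PF library 1.

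The genotypes were then compared under vehicle. All 8 members differed, against 30.0% of all tested genes called lower and 29.7% called higher in AMPKβ1-/- BMDMs. Mvd was at 51.8 to 62.2 CPM in WT and 29.4 to 31.1 CPM in AMPKβ1-/- libraries, a log2 fold change of -0.95 ± 0.0960 (adjusted p = 1.23e-05). Fdps was at 123.2 to 143.7 CPM and 68.3 to 79.7 CPM (-0.84 ± 0.100, adjusted p = 2.97e-05). Mvk (-0.79 ± 0.136), Pmvk (-0.63 ± 0.114) and Acat2 (-0.43 ± 0.135) were lower as well. Ggps1 was at 4.92 to 6.18 CPM in WT and 10.1 to 11.2 CPM in AMPKβ1-/- libraries (0.94 ± 0.164, adjusted p = 0.000265). Idi1 (0.98 ± 0.242) and Hmgcs1 (0.52 ± 0.201) were higher as well.

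The directions were split by GC content. The 3 members that were higher have transcripts of 40.1% to 43.1% GC, and the 5 that were lower have 49.6% to 59.6% GC. With the GC and length trend removed, 1123 of all 10822 tested genes were called lower and 2856 higher. In that fit 2 of the 8 members kept the call, Mvd (-0.34, adjusted p = 0.00206) and Fdps (-0.33, adjusted p = 0.000987), while Hmgcs1 and Ggps1 turned to -0.071 and -0.066. Removing the trend moved the median of all tested genes from -0.026 to 0.12, and scaling by library size alone moved it to 0.18, so relative to the median gene the falls of Mvd and Fdps were larger than these values. The call of Acat2 was lost with library size alone (-0.21), without WT vehicle library 1 (-0.32) and without AMPKβ1-/- vehicle library 2 (-0.32). Hmgcs1 lost its call without WT vehicle library 1 (0.35), without any single AMPKβ1-/- vehicle library (0.50 to 0.56) and without the filter on low counts (0.53).

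Markers of cell types also differed between the genotypes under vehicle. Of the markers of other cell types that were tested, Cd4 (-1.15, adjusted p = 1.91e-05) and the dendritic marker Itgax (-0.95, adjusted p = 0.000615) were lower in AMPKβ1-/- BMDMs and Col1a2 did not pass (1.05, adjusted p = 0.078). Of the 8 macrophage markers, Cd68 (-0.72), Spi1 (-0.44), Csf1r (-0.28) and Cd14 (-0.24) were lower, and Adgre1 (0.25) and Itgam (0.23) were higher. Over all tested genes 30.0% were called lower and 29.7% higher, so calls of single markers were common to many genes. With the GC trend removed Cd4 (-0.81), Itgax (-0.70) and Cd68 (-0.26) remained lower, and Adgre1 (0.20) and Itgam (0.25) remained higher. Spi1 (0.15), Cd14 (0.19), Lyz2 (0.28) and Col1a2 (1.32) were then called higher, and Csf1r (0.035) was not called. In that fit 1123 of all 10822 tested genes were called lower and 2856 higher. Fibroblast markers, Col1a2 among them, summed to 2.02 to 8.66 CPM in AMPKβ1-/- vehicle libraries, so Col1a2 was low. The part of these markers in the members' differences was not tested.

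**Figure D3:**
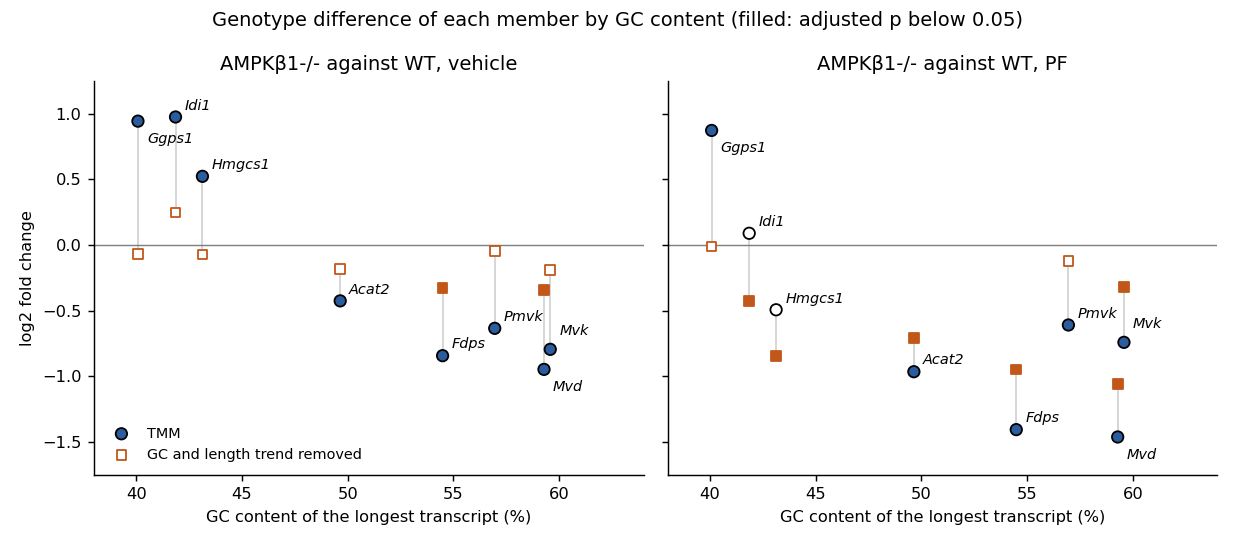
Log2 fold change of each member in AMPKβ1-/- against WT BMDMs with vehicle (left) and with PF (right), plotted against the GC content of its longest transcript in percent. Circles are by TMM, squares joined to them by a line have the GC and length trend removed, and filled symbols have an adjusted p below 0.05. With vehicle the circles pass from above 0 at 40.1% to 43.1% GC to below 0 at 49.6% and more, and the squares lie nearer to 0. With PF, Mvd, Fdps, Acat2 and Mvk are filled by both fits.

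With PF the genotypes differed in 6 of the 8 members, of which 5 were lower and Ggps1 was higher in AMPKβ1-/- BMDMs (22.9% of all tested genes were called lower and 24.1% higher). Mvd was at 65.5 to 77.7 CPM in WT and 25.2 to 26.0 CPM in AMPKβ1-/- libraries (-1.46 ± 0.0964, adjusted p = 1.28e-07). Fdps was at 149.2 to 193.3 CPM and 60.1 to 67.3 CPM (-1.41 ± 0.101, adjusted p = 2.93e-07). Acat2 (-0.96 ± 0.133), Mvk (-0.74 ± 0.135) and Pmvk (-0.61 ± 0.113) were lower, and Ggps1 was higher (0.87 ± 0.155). Hmgcs1 was at -0.49 ± 0.194 (adjusted p = 0.0512) and Idi1 at 0.090 ± 0.222 (adjusted p = 0.762).

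With the GC trend removed, 6 members were lower in AMPKβ1-/- BMDMs with PF, namely Mvd (-1.06), Fdps (-0.95), Hmgcs1 (-0.84), Acat2 (-0.71), Idi1 (-0.43) and Mvk (-0.32). In that fit 1272 of all 10822 tested genes were called lower and 2967 higher. The medians of all tested genes were -0.0012 before the trend was removed and 0.11 after. Pmvk (-0.12) and Ggps1 (-0.0098) then lost the call. Both genotype comparisons share their libraries with the comparisons of PF against vehicle, so they are not independent of them.

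The genes around the arm were taken from lists. Of the 13 enzymes from squalene to cholesterol, 7 rose with PF in WT, 0 fell and 6 did not pass, with a median log2 fold change of 0.38. Of all tested genes 6.99% were called higher and 969 of 10822 lower. Among the 7 were the demethylase Cyp51 (0.77 ± 0.0839), the sterol oxidase Msmo1 (0.79 ± 0.0996), the reductase Hsd17b7 (1.04 ± 0.148) and the epoxidase Sqle (0.54 ± 0.0860). In AMPKβ1-/- BMDMs 0 of the 13 passed, beside 0.0554% of all tested genes. The difference between the responses passed for Cyp51 (0.84), Msmo1 (0.79) and Hsd17b7 (1.14), beside 0.176% of all tested genes in that direction. With the GC trend removed the difference passed for 7, these 3 and also Fdft1 (0.59), Sqle (0.53), Lss (0.55) and Sc5d (0.58). Of these, Fdft1, Lss and Sc5d are named after their values were seen. In that fit 0.656% of all tested genes were called in that direction. Cyp51, Msmo1, Hsd17b7 and Sqle kept their calls in WT with the GC trend removed (0.54 to 0.75).

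Downstream of Fdps and Ggps1, the enzymes that attach or process prenyl groups and the branches to dolichol and ubiquinone gave 15 tested genes. Of these 1 rose and 1 fell with PF in WT, with a median log2 fold change of 0.058. Over all 10822 tested genes, 6.99% were called higher and 969 lower, and these values stand beside the lists that follow as well. Zmpste24, a protease that trims prenylated proteins, rose (0.48 ± 0.149) and Rabggta, a subunit of the Rab geranylgeranyl transferase, fell (-0.40 ± 0.109). Neither was called with the GC trend removed (0.11 and -0.17). Of 9 genes of SREBP control and sterol handling, 2 rose, Insig1 (0.99 ± 0.116), which retains SREBP in the endoplasmic reticulum, and Stard4 (0.81 ± 0.195), a sterol carrier. The median of that list was 0.30, and 4 of its genes were called higher with the GC trend removed. In that fit 4.01% of all tested genes were called higher. The response of Insig1 differed between the genotypes (1.07 ± 0.165, adjusted p = 0.0133), and that of Stard4 did not pass (0.78 ± 0.273, adjusted p = 0.229). Of 12 tested genes of fatty acid synthesis, 2 rose, Scd2, a fatty acid desaturase (0.74 ± 0.0893), and Elovl5, an elongase (0.35 ± 0.100), with a list median of 0.046. With the GC trend removed the list had 3 higher genes: Scd2 (0.80) and, named after their values were seen, Fasn, the fatty acid synthase (0.42, adjusted p = 0.000404, against 0.051 by TMM), and Acly, which makes cytosolic acetyl-CoA (0.21, adjusted p = 0.0272, against 0.051 by TMM), while Elovl5 was not called (0.10). The response of Scd2 differed between the genotypes (0.90, adjusted p = 0.00811), and that of Fasn was called with the GC trend removed (0.51, adjusted p = 0.00816) and not by TMM (0.20). In AMPKβ1-/- BMDMs 0 members of each of these lists passed, beside 0.0554% of all tested genes.

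**Figure D4:**
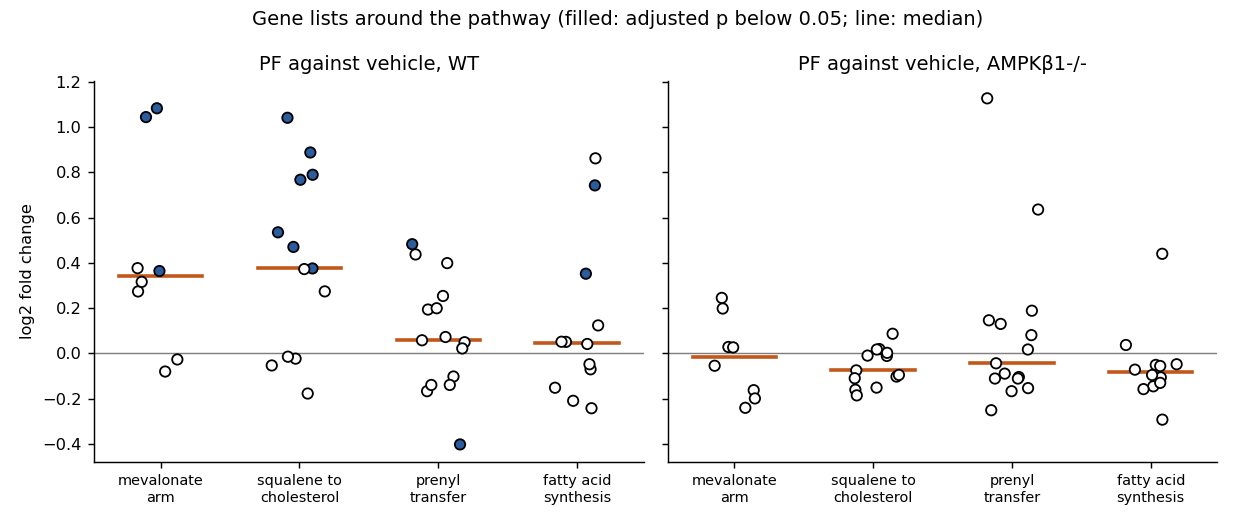
Log2 fold change with PF against vehicle in WT (left) and AMPKβ1-/- BMDMs (right) for the tested genes of the mevalonate arm, of squalene to cholesterol, of prenyl transfer and its branches and of fatty acid synthesis, with 1 point per gene, filled where the adjusted p was below 0.05, and a line at the median. In WT the medians of the first lists are 0.34 and 0.38 and those of the others 0.058 and 0.046, and no point is filled in AMPKβ1-/- BMDMs.

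The genes whose profile over the 12 libraries lay nearest to the mean profile of the 8 members were Stx3, Pacc1, Ipo5, Ptafr and Degs1. Their root mean square distances were 0.0622 to 0.0704 on the log2 scale, among 7826 genes at a mean of 10 CPM or more, where the mean profile itself had an SD of 0.233. The 12 libraries differed in depth and in GC slope, and the GC trend was not removed from these profiles. The mean profile also averages members that moved apart, such as Idi1 (-1.29) and Mvd (0.57) in WT vehicle library 1. The comparison is a description of likeness alone.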

How the data were processed

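RNA of BMDMs was sequenced in 12 libraries from a directional kit, 3 in each group by the labels. The authors trimmed reads with Trim Galore and quantified them with Salmon. The authors deposited Salmon's estimated counts as whole numbers, without normalization, for 12960 genes. Genome build, tool versions and bias options are not given in the sources used here. Salmon splits reads shared by similar transcripts, and a bias left uncorrected stays in the counts.

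The main analysis used edgeR 4.0.16 under R 4.3.3 (TMM, filterByExpr by group, robust quasi-likelihood test) in 1 fit of 4 group means, with adjustment over 10822 genes. CPM use TMM. Log2 CPM used a prior count of 2. SE were derived from the F statistic. GC content and length came from GENCODE M21 (12703 genes matched by symbol, 169 by an older symbol, 88 not) and entered as natural splines of 5 degrees of freedom per library. Alternatives were DESeq2 1.42.0 (size factors or Wald test), limma-voom 3.58.1, library size alone, upper quartile scaling, no filter, a minimum of 10 counts per library, a replicate block, fewer libraries and the added threshold of 0.8. The edgeR fit was tested on simulated data. Library numbers are names: libraries of the same number correlated between -0.17 and 0.32 in their deviations from the group means of a genotype.

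The members, the lists and the tests were chosen with earlier results of these data known. All members are named; of the other lists, genes called with PF in WT or in the difference of responses, at most 4 a list by smallest p, and the 5 genes nearest to the members' profile. A few single genes that the rule covers are left unreported. Depth bears on counting error, which as a mean over all genes was smaller than the spread between replicate libraries. For single members the 2 were not compared, and Ggps1 had only 46, 67 and 58 counts in the WT vehicle libraries.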

Additional observations from a re-analysis of the deposited data

Results flagged for a closer look

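Fdps and Mvd were higher in every WT library with PF than in every WT library with vehicle, and lower in every AMPKβ1-/- library with PF than in every one with vehicle. Of all tested genes 14.2% were higher in this way in WT and 6.28% lower in AMPKβ1-/- BMDMs, and genes with both were not counted. The falls in AMPKβ1-/- BMDMs did not pass (edgeR adjusted p = 0.982 for Fdps and 0.899 for Mvd). The difference between the responses was 0.56 on the log2 scale for Fdps (edgeR adjusted p = 0.0949) and 0.51 for Mvd (edgeR adjusted p = 0.107), so neither passed the test of the difference itself. With the GC and length trend removed both passed, as the report gives. Over the alternatives that kept all libraries or left out both WT vehicle library 1 and WT PF library 3, the adjusted p was 0.00345 to 0.102 for Fdps and 0.0035 to 0.124 for Mvd. Leaving out 1 library at a time gave 0.0697 to 0.278 for Fdps and 0.0791 to 0.268 for Mvd.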

How the results depend on the processing

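The members called with PF in WT (3) numbered 2 to 3 when 1 library was left out and 5 with library size alone, upper quartile scaling, DESeq2's Wald test, the GC and length trend removed or the replicate block. The share of all tested genes called higher (6.99%) was 1.18% to 14.9% when 1 library was left out. In the other fits, in this order, it was 9.66%, 8.03%, 9.81%, 4.01% and 8.21%. With DESeq2's size factors 4 members were called, beside 7.5% of all tested genes called higher. The members called in the difference of responses (0) numbered 2 with library size alone, 2 with DESeq2's Wald test, 3 with the GC trend removed, 0 to 1 when 1 library was left out (1 without WT PF library 1) and 1 with both WT vehicle library 1 and WT PF library 3 left out, an alternative chosen after seeing the data. Of all tested genes 45 were called for this difference, against 51, 179, 149, 284 (without WT PF library 1) and 13 in these fits. It was 0 members and 32 genes with DESeq2's size factors. In AMPKβ1-/- BMDMs the count was 0 in every alternative run. Under vehicle, the members that differed between genotypes (8) numbered 4 with the threshold of 0.8 added and 2 with the GC trend removed. Of all tested genes 6465 differed under vehicle, against 1931 and 3979 in these fits. The block on the library number gave 0 members for the difference of responses and 8 and 7 for the genotypes with vehicle and with PF. With the block 47, 6446 and 5185 of all tested genes were called in these comparisons. Not every library correlated best with its own number, so the numbers are not read as a pairing.

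Directions turned for small log2 fold changes, and the cause was not tested. With PF in WT, Mvk (-0.027) became 0.050 with library size alone, 0.0014 with upper quartile scaling, 0.23 with the GC trend removed and 0.23 with both libraries left out, and ran from -0.15 to 0.14 with 1 library left out. Pmvk (-0.080) became 0.0022, 0.12 and 0.077 with library size alone, the GC trend removed and both libraries left out, and ran from -0.17 to 0.028. Ggps1 became -0.074 with the GC trend removed. In AMPKβ1-/- BMDMs, removing the GC trend gave -0.073 for Hmgcs1, 0.044 for Pmvk and -0.018 for Ggps1, and leaving out 1 library gave -0.022 to 0.11 for Hmgcs1, -0.049 to 0.095 for Mvk and -0.10 to 0.013 for Pmvk.

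For the difference of responses, library size alone, the GC trend removed and both libraries left out gave 0.0053, 0.13 and 0.20 for Mvk and 0.039, 0.075 and 0.13 for Pmvk, which was 0.0071 with upper quartile scaling. Ggps1 was -0.056 with the GC trend removed and -0.17 with both libraries left out. With 1 library left out the ranges were -0.18 to 0.11 for Mvk, -0.12 to 0.083 for Pmvk and -0.11 to 0.16 for Ggps1. Between genotypes, the GC trend removed gave -0.071 for Hmgcs1 and -0.066 for Ggps1 with vehicle, and -0.43 for Idi1 and -0.0098 for Ggps1 with PF, and Idi1 with PF ran from -0.098 to 0.34 with 1 library left out.

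Over all tested genes, 756 were higher and 969 lower with PF in WT, against 1045 and 587 with library size alone and 434 and 271 with the GC trend removed. Between genotypes with vehicle 3216 were higher and 3249 lower, against 4296 and 1600 with library size alone and 2856 and 1123 with the GC trend removed. With PF these were 2613 and 2481, against 3444 and 1359, and 2967 and 1272. Counts with PF in WT also moved both ways in fits with fewer libraries, from 129 higher and 217 lower without WT PF library 3 to 1622 and 1621 without WT PF library 1, with 210 and 209 when WT libraries were fitted on their own. As a mean over all genes, replicate libraries differed by more than counting error. The part of depth in the errors given for single members was not tested.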
